A study of Mus musculus with 7 samples.

Results

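The 40 genes described here encode proteins that copy DNA or divide the cell, from the cyclins that open S phase to the motors and kinases of mitosis. They were taken as the genes whose Ensembl identifiers map to a fixed set of 40 symbols, and all 40 were found among the 24084 genes listed in the files. Their RNA was measured in F4/80+ macrophages sorted out of subcutaneous tumors, which had been grown from inoculated Lewis lung carcinoma cells (a mouse lung cancer line). The Dicer1-deleted group (3 libraries) came from LysM-Cre;Dicer-/- mice and the control group (4 libraries) from LysM-Cre;Dicer+/+ mice. LysM-Cre places the Cre recombinase under control of the lysozyme M gene, which is active in myeloid cells, and both groups carried it on both alleles. The floxed Dicer1 allele was likewise homozygous in the deleted mice, while the sources used here give no ages. Whether the libraries stem from different mice is not stated, and p-values therefore measure only the spread between these libraries, which may be technical. None of the 40 genes was called different between the groups by the test applied to all genes, and 31 of 40 had a positive log2 fold change in Dicer1-deleted macrophages, a count that 1 library could move to between 17 and 33.

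A dividing cell loads the MCM helicase onto origins in G1, and cyclin E and E2F factors then start DNA synthesis. Cyclin A, cyclin B and their kinase Cdk1 later drive mitosis, while kinases, kinesins and centromere proteins build the spindle and the anaphase-promoting complex ends the process. Most of these genes are transcribed in waves: many replication genes carry E2F sites, and many mitotic genes carry CHR elements (cell cycle genes homology region) with CCAAT boxes. Macrophages in tissues and tumors can divide, and CSF1 is a main growth factor for them. Dicer1, an RNA-cutting enzyme, releases mature microRNAs from their precursors, and let-7, miR-15/16 and miR-17 family members are known to target cell cycle transcripts.

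Each library held between 42.97 and 51.15 M uniquely placed reads, with both mates of a pair counted. Dicer1, counted over its whole length and not over the deleted stretch alone, stood at 7.85, 6.86 and 7.86 CPM (the count relative to the library's total, scaled by the trimmed mean of M-values, TMM) in the Dicer1-deleted libraries and at 15.7 to 18.6 CPM in the control libraries. The 12 macrophage markers (among them Adgre1, which encodes F4/80, Csf1r and Cd68) summed to 16285 to 22988 CPM in the Dicer1-deleted and 15941 to 25587 CPM in the control libraries. The summed level of the 40 cell cycle genes was 1238 to 2153 and 1432 to 1914 CPM. It compares with 5.59 to 9.09 and 1.75 to 13.2 CPM for epithelial or carcinoma cell markers, and 13.8 to 28.6 and 14.2 to 16.2 CPM for T and NK cell markers. B cell markers were at 112 to 156 CPM in the Dicer1-deleted and 35.7 to 79.3 CPM in the control libraries, and endothelial markers at 39.4 to 72.1 and 3.68 to 16.9 CPM, so both sums separated the groups. Single markers did not all follow the sums. Of the 5 tested B cell markers, 3 had positive and 2 negative log2 fold changes (-2.36 to 1.34). The 3 tested endothelial markers were all positive but ranged from 0.34 to 2.57. Of the 14 tested T and NK cell markers, whose sums overlapped, 11 were positive and 3 negative (-1.70 to 2.52), with a median of 1.14. Of the 7 tested neutrophil markers, 6 were positive and 1 negative (-1.66 to 2.11), with a median of 0.81. The 12 macrophage markers held 7 positive and 5 negative values (-1.29 to 0.91), with a median of 0.097. Monocyte markers reached 2355 CPM in control replicate 3, against 710 to 1271 CPM in the other 6 libraries, neutrophil markers were at 254 to 315 CPM in the Dicer1-deleted and 177 to 627 CPM in the control libraries, and erythroid markers reached 487 CPM in Dicer1-deleted replicate 2, against 19.7 to 165 CPM in the other 6. Dendritic cell markers were at 12.1 to 15.3 CPM in the Dicer1-deleted libraries and, from control replicate 1 to 4, at 50.9, 9.02, 141 and 9.02 CPM. The part of these cells in the levels of the cell cycle genes was not tested. In a sorted population, fewer dividing cells and less RNA per dividing cell cannot be told apart.

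Dicer1-deleted replicate 2 stood apart from the other libraries. It was the lowest of the 7 libraries for 22 of the 40 cell cycle genes and for 30.2% of all tested genes, and the main counts and medians are therefore also given without it.

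The cell cycle transcripts were well detected in control macrophages. Per length, in the authors' RPKM (reads per kilobase of transcript, scaled to library size), 33 of the 40 lay above the median of the 16226 tested genes when averaged over all 7 libraries, and the middle member stood at the 67.5th percentile. Among replication genes the highest control levels were those of Mcm3, a subunit of the replicative helicase (34.7 ± 5.56 RPKM, SD, n = 4), Rrm2, the regulated subunit of ribonucleotide reductase (30.2 ± 9.56 RPKM), and Pcna, the sliding clamp of DNA polymerases (29.7 ± 6.48 RPKM). Among mitotic genes, Cdk1 was highest (27.2 ± 9.197 RPKM), followed by Birc5 (survivin, 20.5 ± 7.01 RPKM), Prc1 (19.5 ± 5.68 RPKM), Top2a (17.5 ± 3.12 RPKM) and Ccnb2 (17.1 ± 10.4 RPKM). Neighbours in this order did not differ beyond their spread: the standard deviations of Rrm2, Pcna and Cdk1 all exceeded the gaps between them. The lowest were Ccne1 (cyclin E1, 1.04 ± 0.322 RPKM), Foxm1, a transcription factor of mitotic genes (1.298 ± 0.362 RPKM), and Cdc20, an activator of the anaphase-promoting complex (1.47 ± 1.099 RPKM). Mki67, which encodes the proliferation marker Ki-67, stood at 12.7 ± 2.95 RPKM.

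The promoters of the 40 genes were searched for the motifs of the known expression waves, in windows from 250 bases before to 50 bases after the gene start (RefSeq, GRCm38.p6), which held 32 of the 40. A CHR (TTTGAA or TTCGAA, both strands) was present in 18 of 32, that is in 15 of 19 mitotic and 3 of 13 replication genes, and in 17.1% of the 10006 tested genes with a window. An E2F site (TTTCCCGC, TTTGGCGC, TTTCGCGC or TTTGCCGC, both strands) was present in 7 of 32, in 6 of 13 replication and 1 of 19 mitotic genes, and in 4.64% of tested genes. A CCAAT box (CCAAT, both strands) was present in 25 of 32 and in 43.1% of tested genes. A match describes the letters of the window and not a bound site. The 250 bases before the start of 4 genes show the range, with CHR, E2F and CCAAT matches in capitals, on either strand and with overlapping matches merged.
Top2a: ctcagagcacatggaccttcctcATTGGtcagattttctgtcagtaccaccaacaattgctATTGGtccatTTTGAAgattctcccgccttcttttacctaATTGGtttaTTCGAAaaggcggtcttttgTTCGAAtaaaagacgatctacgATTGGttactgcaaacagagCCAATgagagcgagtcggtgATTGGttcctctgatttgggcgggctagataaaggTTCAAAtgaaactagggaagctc
Cdk1: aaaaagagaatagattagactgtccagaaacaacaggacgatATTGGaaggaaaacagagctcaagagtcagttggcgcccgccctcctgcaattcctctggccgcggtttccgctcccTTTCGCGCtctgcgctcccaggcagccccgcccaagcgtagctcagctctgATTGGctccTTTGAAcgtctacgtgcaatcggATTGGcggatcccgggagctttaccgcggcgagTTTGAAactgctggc
Mcm5: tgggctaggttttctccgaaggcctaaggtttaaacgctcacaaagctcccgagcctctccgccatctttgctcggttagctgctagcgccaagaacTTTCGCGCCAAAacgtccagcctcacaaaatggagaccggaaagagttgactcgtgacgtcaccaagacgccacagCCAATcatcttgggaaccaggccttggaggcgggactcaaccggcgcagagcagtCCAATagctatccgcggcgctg
Mcm6: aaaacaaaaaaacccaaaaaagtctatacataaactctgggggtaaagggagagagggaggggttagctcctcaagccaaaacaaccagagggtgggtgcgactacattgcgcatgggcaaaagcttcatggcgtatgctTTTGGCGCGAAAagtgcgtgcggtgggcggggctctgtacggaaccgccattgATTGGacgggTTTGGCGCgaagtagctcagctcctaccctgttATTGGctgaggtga
The window of Top2a (chr11:99024190-99024439, minus strand), which encodes the topoisomerase that untangles sister chromosomes, held 4 CHR and 6 CCAAT matches and no E2F match. That of Cdk1 (chr10:69352913-69353162, minus strand) held 2 CHR, 3 CCAAT and 1 E2F matches, and was the only one of the 19 mitotic genes with an E2F match. The windows of the helicase genes Mcm5 (chr8:75109259-75109508, plus strand) and Mcm6 (chr1:128359706-128359955, minus strand) held 2 and 3 E2F matches, in part overlapping, 2 CCAAT matches each and no CHR.

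As Dicer1 makes microRNAs, the 3' UTRs of the cell cycle genes were searched for matches to the seeds (bases 2 to 8) of 6 microRNAs known for cell cycle targets. The mature sequences (RefSeq) of 3 of them are given with the seed in capitals.
let-7a-5p: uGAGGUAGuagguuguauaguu
miR-16-5p: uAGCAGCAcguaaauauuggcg
miR-17-5p: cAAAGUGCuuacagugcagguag
The seed of let-7a-5p is shared by 11 mature mouse microRNAs in the table used, that of miR-16-5p by 10 (miR-15a-5p and miR-195a-5p among them) and that of miR-17-5p by 7 (miR-20a-5p and miR-93-5p among them). At least 1 seed match of the 6 microRNAs (also miR-34a-5p, miR-24-3p and miR-26a-5p) was found in the longest annotated 3' UTR of 19 of the 40 genes (GENCODE mouse release 21, GRCm38). Sites in 3 replication genes, with the 7 bases that pair with the seed in capitals, are these.
Ccne1, miR-16-5p: tattttgtaagTGCTGCTatgtctatcaa
E2f1, miR-17-5p, first site: gggctctaactGCACTTTtggtgtccttg
E2f1, miR-17-5p, next site: ccctccagtctGCACTTTgatttgtttcc
Rrm2, let-7a-5p: aagctgtgtagCTACCTCagtcctgtttg
The Ccne1 site lies at chr7:38098013-38098041 (minus strand) in exon 12 of 12, the E2f1 sites at chr2:154560201-154560229 (minus strand) and chr2:154559686-154559714 (minus strand) in exon 7 of 7, and the Rrm2 site at chr12:24713351-24713379 (plus strand) in exon 10 of 10, all in the 3' UTR. A let-7 site was present in 4 of 40 cell cycle genes (Birc5, Kif11, Nusap1 and Rrm2) and in 10.4% of the 12089 tested genes with a 3' UTR. Sites of miR-16-5p were present in 8 of 40 and 24.6%, and sites of miR-17-5p in 6 of 40 (E2f1, Foxm1, Kif23, Mcm3, Mcm7 and Rrm2) and 14.4%. The shares among cell cycle genes were thus 10%, 20% and 15%.

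The main comparison asked whether the loss of Dicer1 went with a different level of the proliferation genes. In edgeR's quasi-likelihood test with Benjamini-Hochberg adjustment over 16226 genes, 0 of the 40 genes were called at an adjusted p of 0.05, where 0.0247% of all tested genes were called. At an unadjusted p under 0.05 there were again 0 of 40, against 8.01% of tested genes, and DESeq2 called 0 of 40, against 2.5%. The groups overlapped for every one of the 40 genes, while 9.31% of tested genes showed no overlap. Log2 fold changes (Dicer1-deleted minus control) ran from -0.34 for Ccnb1 to 1.05 for Cenpa, with a median of 0.077, beside 0.028 over all tested genes. They were positive for 31 of 40 genes, against 52.6% of all tested genes, but for 25 of 40 when library totals replaced the TMM scaling. When 1 library was left out, the count of positive genes was lowest without Dicer1-deleted replicate 3 (17 of 40) or control replicate 4 (19 of 40) and highest without Dicer1-deleted replicate 2 (33 of 40). The smallest adjusted p of the edgeR test was 0.799, for Cenpa, and the smallest exact two-sided permutation p over the 35 splits of 7 libraries was 0.143 (Cenpa and Ccna2), where 0.0286 is the smallest the design allows.

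The absence of a call is not a measure of equality, so the 95% interval of each log2 fold change was computed from the same fit. For 19 of 40 genes this interval stayed within a 2-fold change in either direction, against 33.1% of tested genes, and for 39 of 40 it stayed within 4-fold. The bounds for Mki67 were 0.649 and 1.62 times its control level, and those for Pcna 0.659 and 1.64 times. On the log2 scale the widest interval was that of Kif20a, with bounds of 0.281 and 2.66 times, followed by Cdc20, with 0.439 and 2.81 times, and Cenpa, with 0.817 and 5.22 times.

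**Figure D1:**
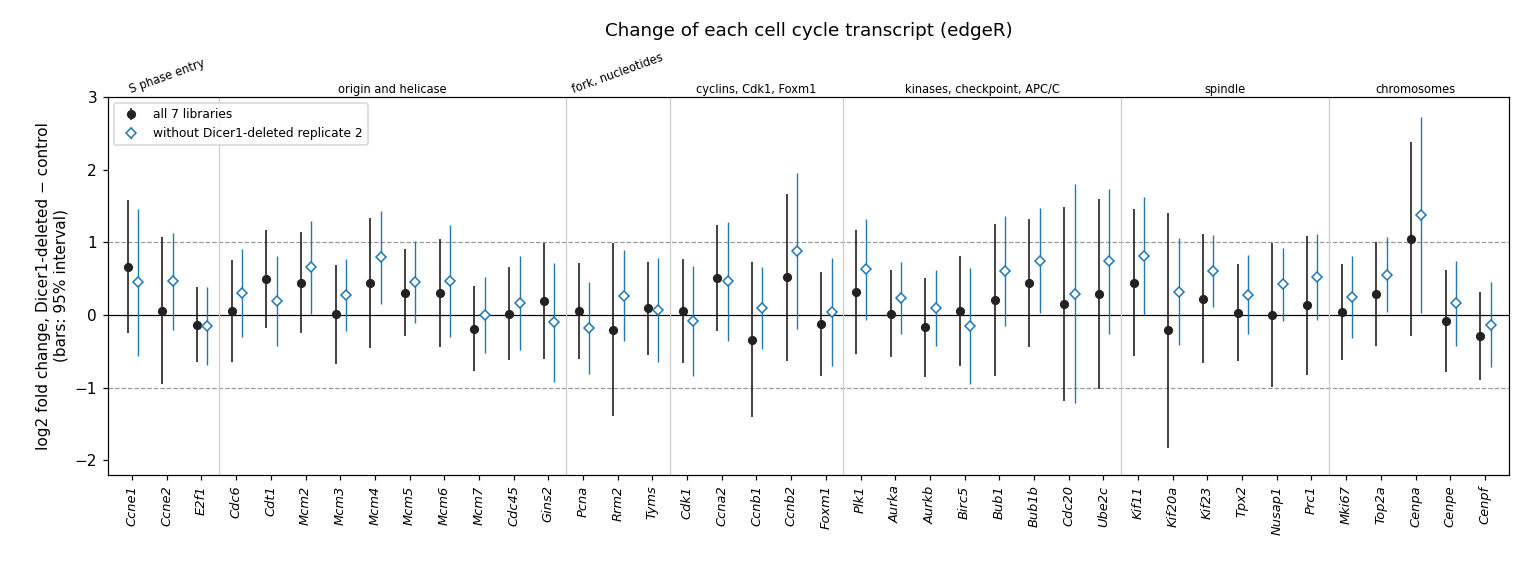
Log2 fold change of each of the 40 cell cycle genes (Dicer1-deleted minus control, y axis), ordered by role, with 95% intervals from edgeR; black circles use all 7 libraries and open diamonds leave out Dicer1-deleted replicate 2. Every black interval includes 0, and 33 of the 40 diamonds lie above 0 without that library, against 31 of the 40 circles.

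None of the 3 genes that open S phase was called. Ccne1, which encodes cyclin E1, the partner of Cdk2 at the G1/S boundary, stood at 2.49, 5.74 and 5.21 CPM in Dicer1-deleted replicates 1, 2 and 3 and 3.77, 3.501, 1.93 and 2.097 CPM in control replicates 1 to 4. Replicates 2 and 3 of the Dicer1-deleted group were above every control and replicate 1 was within the control range, with a log2 fold change of 0.66 ± 0.41 (SE) and an edgeR adjusted p of 0.834. Ccne2, the gene of cyclin E2, was at 32.4, 8.84 and 34.02 against 17.4, 19.3, 33.4 and 26.1 CPM in the same order of libraries, so that a single low library, Dicer1-deleted replicate 2, lay below all controls. E2f1, a transcription factor that switches on replication genes, was the steadiest of the 40 genes, at 25.3, 25 and 23.4 against 30.9, 27.9, 27.1 and 21.7 CPM. Its highest level was 1.43 times its lowest, and its log2 fold change was -0.13 ± 0.23, with a 95% interval of -0.65 to 0.38. The miR-16 and miR-17 sites printed for Ccne1 and E2f1 went with log2 fold changes of opposite sign, neither of which passed the test.

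Among the 10 genes of origin licensing and the replicative helicase, 9 had positive log2 fold changes and Mcm7 a negative one (-0.19), with 0 called and a median of 0.25. Cdc6, which recruits the helicase to origins, was at 18.9, 10.5 and 21.2 against 15.9, 18.9, 18.5 and 11.5 CPM, with a log2 fold change of 0.058. Its partner Cdt1 was at 13.9, 22.9 and 13.1 against 13.8, 14.1, 9.04 and 10.2 CPM, and was highest in Dicer1-deleted replicate 2. The log2 fold change of Cdt1 was 0.50 ± 0.30 (edgeR adjusted p 0.817). Mcm2 stood at 46.5, 29.98 and 55.5 CPM in Dicer1-deleted replicates 1, 2 and 3 and 29.01, 34.6, 43.2 and 22.6 CPM in control replicates 1 to 4, and Mcm5 at 78.7, 54.3 and 76.4 against 64.1, 58.2, 62.9 and 40.2 CPM. For both helicase subunits Dicer1-deleted replicates 1 and 3 were above every control and replicate 2 was inside the control range. Their log2 fold changes were 0.44 ± 0.31 and 0.31 ± 0.27, with edgeR adjusted p-values of 0.8998 and 0.966. Mcm3, Mcm4 and Mcm6 had log2 fold changes of 0.010, 0.44 and 0.30, and Mcm6 was set apart by 1 high library, at 75.4 CPM in Dicer1-deleted replicate 3 against 27.7 to 46.0 CPM elsewhere. The 2 remaining genes, Cdc45 and Gins2, which join the helicase when origins fire, had log2 fold changes of 0.020 and 0.19. Subunits of the MCM2-7 ring, which assemble in equal number, thus ran from -0.19 to 0.44 in log2 fold change, and their 95% intervals all overlapped.

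The clamp and nucleotide supply genes had log2 fold changes near 0. Pcna was at 66.3, 97.8 and 62.3 CPM in Dicer1-deleted replicates 1, 2 and 3 and 80.5, 95.4, 55.7 and 58.3 CPM in control replicates 1 to 4. Its groups covered nearly the same range, with a log2 fold change of 0.058 ± 0.29 and a 95% interval of -0.60 to 0.72. Tyms, which makes thymidylate, was at 29.5, 33.9 and 35.5 against 37.4, 39.9, 26.2 and 20.3 CPM, with a log2 fold change of 0.092 and all 3 Dicer1-deleted libraries inside the control range. Rrm2 was at 92.7, 17.02 and 109 against 66.9, 66.1, 114 and 88.2 CPM. A single library, Dicer1-deleted replicate 2, was under 1/2 of every other library, and the log2 fold change of -0.20 ± 0.53 became 0.27 without it.

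Cdk1, the kinase that starts mitosis, and its cyclins showed no common direction. Cdk1 was at 89.8, 117 and 90.4 CPM in Dicer1-deleted replicates 1, 2 and 3 and 136, 106, 80.4 and 58.4 CPM in control replicates 1 to 4. All Dicer1-deleted libraries lay inside the control range, and the log2 fold change was 0.059 ± 0.32. Ccna2 (cyclin A2) was at 9.55, 13.7 and 15.5 against 13, 9.96, 6.599 and 6.79 CPM, with a log2 fold change of 0.51 ± 0.32 and an edgeR adjusted p of 0.859. Ccnb2 (cyclin B2) was at 28.9, 16.9 and 66.9 against 20.5, 20.6, 47.9 and 15.95 CPM. Its group means differed by a log2 fold change of 0.52 ± 0.51 (edgeR adjusted p 0.994), and 1 library of each group, Dicer1-deleted replicate 3 and control replicate 3, exceeded all others. Ccnb1 (cyclin B1), which had the lowest log2 fold change of all 40 genes, was at 47.2, 10.7 and 53.3 against 55.6, 37.4, 54.03 and 40.9 CPM. Here Dicer1-deleted replicates 1 and 3 lay among the controls and replicate 2 was below every control, giving -0.34 ± 0.47 with it and 0.095 without it. Foxm1 was at 6.27, 5.08 and 8.495 against 7.59, 7.495, 9.04 and 4.65 CPM, with a log2 fold change of -0.12.

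Of the 8 genes of mitotic kinases, the spindle checkpoint and the anaphase-promoting complex, 7 had positive log2 fold changes and Aurkb a negative one, with a median of 0.18. Plk1, the polo-like kinase of mitotic entry, was at 7.97, 3.35 and 8.71 against 6.498, 6.37, 4.78 and 3.78 CPM, and Dicer1-deleted replicates 1 and 3 exceeded every control. Aurkb and Birc5 encode the kinase and the survivin subunit of the chromosomal passenger complex, and they differed in pattern. Aurkb was at 42.8, 19.4 and 36.7 CPM in Dicer1-deleted replicates 1, 2 and 3 and 44.1, 37.2, 33.98 and 33.1 CPM in control replicates 1 to 4, lowest in Dicer1-deleted replicate 2. Birc5 was at 61.1, 94 and 67.2 against 94.5, 92.8, 54.9 and 42.9 CPM, with Dicer1-deleted replicate 2 level with the highest controls. Their log2 fold changes were -0.17 ± 0.30 and 0.056 ± 0.34. Cdc20 was the least abundant of the group per length, as given above in RPKM, and stood at 2.12, 2.44 and 4.53 against 3.69, 1.21, 4.99 and 1.003 CPM, and its 95% interval was -1.19 to 1.49. Ube2c, the ubiquitin-conjugating enzyme of the anaphase-promoting complex, was at 29.02, 5.89 and 31.1 against 9.18, 10.7, 28.7 and 23.5 CPM. Control libraries lay on 2 levels for Ube2c, near 10 CPM in replicates 1 and 2 and above 20 CPM in replicates 3 and 4, and the log2 fold change was 0.29 ± 0.58. Aurka, which matures the centrosomes, and the checkpoint genes Bub1 and Bub1b had log2 fold changes of 0.021, 0.21 and 0.44.

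The 6 spindle genes had a median log2 fold change of 0.085. Kif11, the motor that pushes spindle poles apart, was at 40.1, 12.7 and 37.1 CPM in Dicer1-deleted replicates 1, 2 and 3 and 16.98, 12.9, 34.3 and 23.7 CPM in control replicates 1 to 4. Dicer1-deleted replicates 1 and 3 were above every control and replicate 2 was below every control, with a log2 fold change of 0.45 ± 0.45 and an edgeR adjusted p of 0.996. Kif20a, a motor of the central spindle, was at 45.5, 2.59 and 38.04 against 35.05, 20.2, 48.1 and 29.7 CPM. Its highest library was 18.6 times its lowest, the largest ratio of the 40 genes, and the low value was again that of Dicer1-deleted replicate 2. The other 4, Kif23, Tpx2, Nusap1 and Prc1, which bundle or cross-link spindle microtubules, had log2 fold changes of 0.23, 0.034, 0.0035 and 0.13, and Dicer1-deleted replicate 2 was the lowest library for each of them.

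The 5 chromosome and centromere genes held the largest single log2 fold change, and their median was 0.038. Mki67 was at 155, 90.04 and 152 CPM in Dicer1-deleted replicates 1, 2 and 3 and 163, 102, 138 and 113 CPM in control replicates 1 to 4. The Dicer1-deleted libraries spanned a range close to that of the controls, with means of 133 ± 36.9 and 129 ± 27.2 CPM (SD, n = 3 and 4) and a log2 fold change of 0.038 ± 0.29. Top2a was at 263, 114 and 208 against 176, 135, 181 and 146 CPM, with replicates 1 and 3 above every control and a log2 fold change of 0.29 ± 0.32. Cenpa, the histone H3 variant that marks centromeres, was at 33.5, 15.7 and 44.3 against 4.99, 9.56, 33.3 and 12.4 CPM. Dicer1-deleted replicates 1 and 3 were above every control, narrowly in the case of control replicate 3, and the other 3 controls were at 12.4 CPM or lower. The log2 fold change of Cenpa was 1.05 ± 0.59, the largest of the 40. Cenpf was at 34.7, 23.1 and 33 against 45.8, 36.2, 38.5 and 27.5 CPM, with a log2 fold change of -0.29 ± 0.27, and Cenpe, a kinesin of the kinetochore, had -0.076. Cenpa and Cenpf, both centromere proteins, thus stood toward opposite ends of the range without either passing the test.

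**Figure D2:**
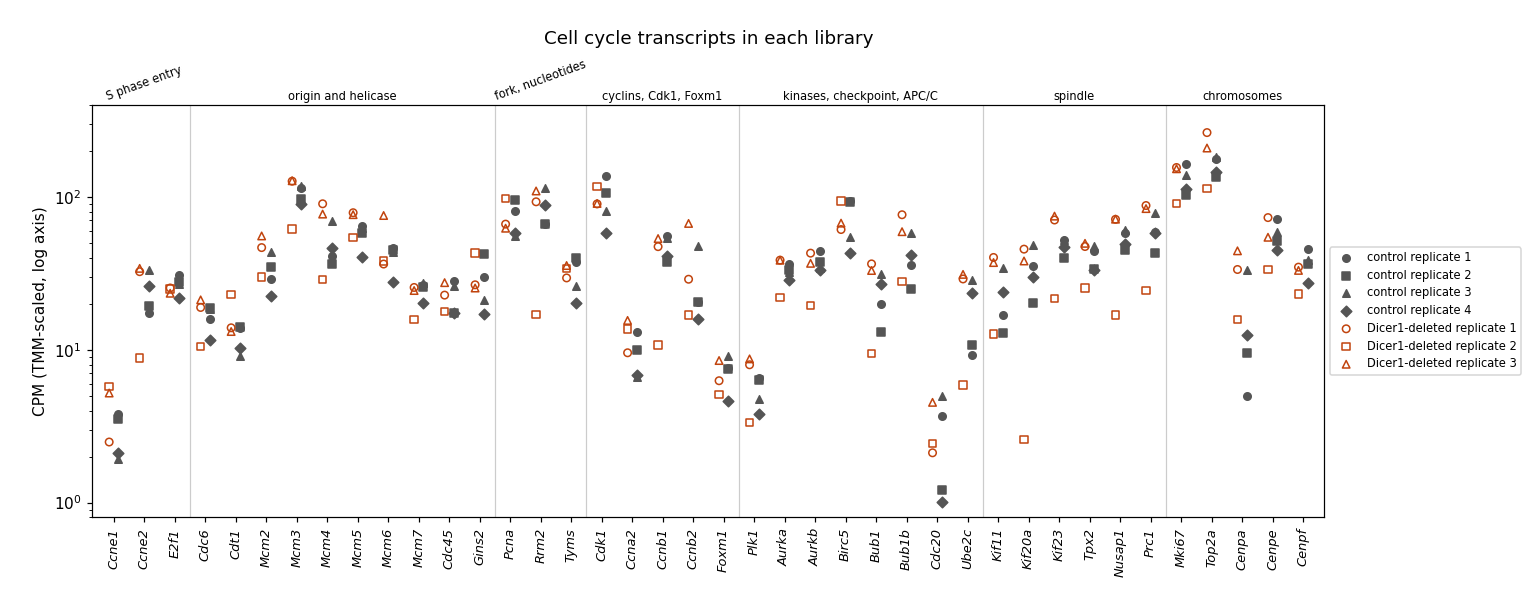
Level of each cell cycle gene in each library (TMM-scaled CPM, log axis), with filled grey symbols for the 4 control and open orange symbols for the 3 Dicer1-deleted libraries, ordered by role. The groups overlap for all 40 genes, and the open square of Dicer1-deleted replicate 2 is the lowest symbol for 22 of them, down to 2.59 CPM for Kif20a.

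As a single measure, the mean of log2(CPM + 1) over the 40 genes was 5.26, 4.44 and 5.37 in Dicer1-deleted replicates 1, 2 and 3 and 5.04, 4.85, 5.17 and 4.72 in control replicates 1 to 4. The Dicer1-deleted group thus held the 2 highest libraries and the lowest one. Group means were 5.02 ± 0.51 and 4.94 ± 0.20 (SD, n = 3 and 4), a difference of 0.080 that was smaller than the spread within either group. It became 0.37 without Dicer1-deleted replicate 2, -0.094 without Dicer1-deleted replicate 3, -0.037 without Dicer1-deleted replicate 1 and 0.0047 without control replicate 4. The 16 replication genes gave 5.04 ± 0.29 and 4.93 ± 0.19, and the 24 mitotic genes 5.01 ± 0.65 and 4.95 ± 0.25. Library titles carry a code of L4 or L5, whose meaning is not given in the sources used here. Within code 4 (Dicer1-deleted replicates 2 and 3, control replicate 2) the difference over the 40 genes was 0.054, and within code 5 (Dicer1-deleted replicate 1, the other controls) it was 0.28. For the replication genes the values within the codes were -0.026 and 0.22, and for the mitotic genes 0.11 and 0.32, so the sign for replication genes was not the same in both.

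**Figure D3:**
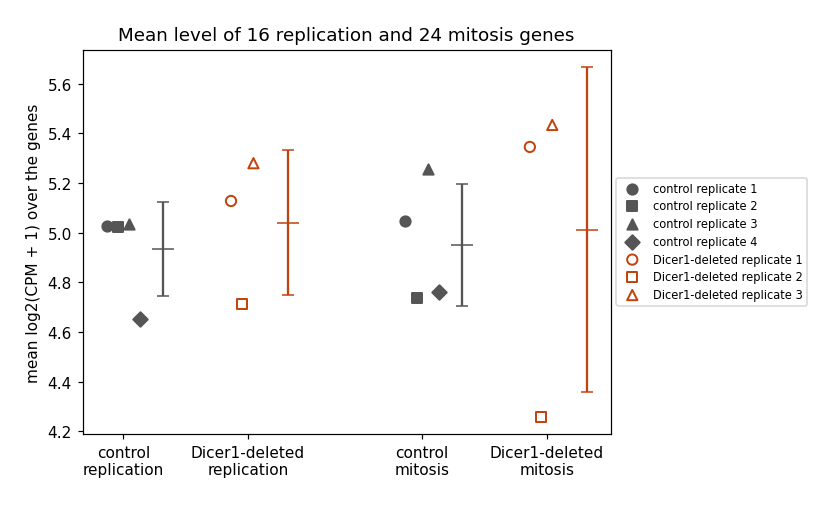
Mean log2(CPM + 1) over the 16 replication genes (left) and the 24 mitotic genes (right) in each library, with the group mean and SD beside the points. Dicer1-deleted replicates 1 and 3 are the highest libraries in both panels, and replicate 2 is at 4.71 for replication genes and at 4.26, the lowest of 7 libraries, for mitotic genes.

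The 3 Dicer1-deleted libraries differed among themselves more than the groups did. Relative to the mean of replicates 1 and 3, replicate 2 had a median log2 ratio, with 1 CPM added, of -0.88 over the 40 genes, against -0.083 over all tested genes and -0.29 over tested genes inside the middle length range (quartiles) of the 40. The median was -0.49 for the 16 replication genes and -1.07 for the 24 mitotic genes. By role it was -1.74 for the 6 spindle genes, -1.05 for the kinase and checkpoint genes, -0.90 for the chromosome genes, -0.57 for the origin and helicase genes and -0.45 for the mitotic cyclins with Cdk1 and Foxm1, but 0.037 for the 3 genes of S phase entry and 0.067 for the clamp and nucleotide genes. For 17 of 40 genes this ratio was under 1/2, with 1 CPM added and replicates 1 and 3 averaged as log2 values (13 of them mitotic). For 15 genes the CPM of replicate 2, with nothing added, was under 1/2 of that of each of replicates 1 and 3 (11 of them mitotic). The lowest ratios were those of Kif20a (-3.57), Rrm2 (-2.50), Ube2c (-2.17), Ccnb1 (-2.13) and Nusap1 (-2.02).

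The lower level of replicate 2 did not extend to every gene. It lay above both replicates 1 and 3 for 6 genes, 4 of them replication genes (Ccne1, Cdt1, Gins2 and Pcna) and 2 mitotic ones (Cdk1 and Birc5), and above their mean also for E2f1, Tyms and Ccna2. It was the highest of all 7 libraries for Ccne1, Cdt1, Gins2 and Pcna (4 of 40, against 26.3% of tested genes). Cdk1 and its partner Ccnb1 were therefore parted in this library, at 117 and 10.7 CPM, where the other 6 libraries had 58.4 to 136 and 37.4 to 55.6 CPM. By promoter, the 18 genes with a CHR match had a median log2 ratio of -1.07 in replicate 2, and the 14 without one -0.48. The 7 genes with an E2F match had -0.51 and the 25 without one -1.04. Of the 18 genes with a CHR match 15 are mitotic, and of the 7 with an E2F match 6 are replication genes. The split by promoter is therefore not separate from that between mitotic and replication genes. Top2a and Cdk1, whose promoters both hold CHR and CCAAT matches as printed above, were at -1.04 and 0.38. These ratios are descriptions of 1 library, which also had the highest erythroid marker sum (487 CPM) and a larger share of its reads in its 20 most abundant genes (18.2%, against 10.5% to 14.9% elsewhere). The Spearman rho between these ratios and transcript length was -0.059 over the 40 genes, all from the same 3 libraries. A correction of each library's trend with length, over all genes, nonetheless narrowed the gap. Mean log2(CPM + 1) was then 5.18, 4.63 and 5.29 in Dicer1-deleted replicates 1, 2 and 3, and 4.66 to 5.09 in the controls. Replicate 2 was then no longer the lowest library for some genes, such as Top2a (143 against 130 CPM in control replicate 4) and Mki67 (114 against 99.8 CPM). The part of length was not tested.

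**Figure D4:**
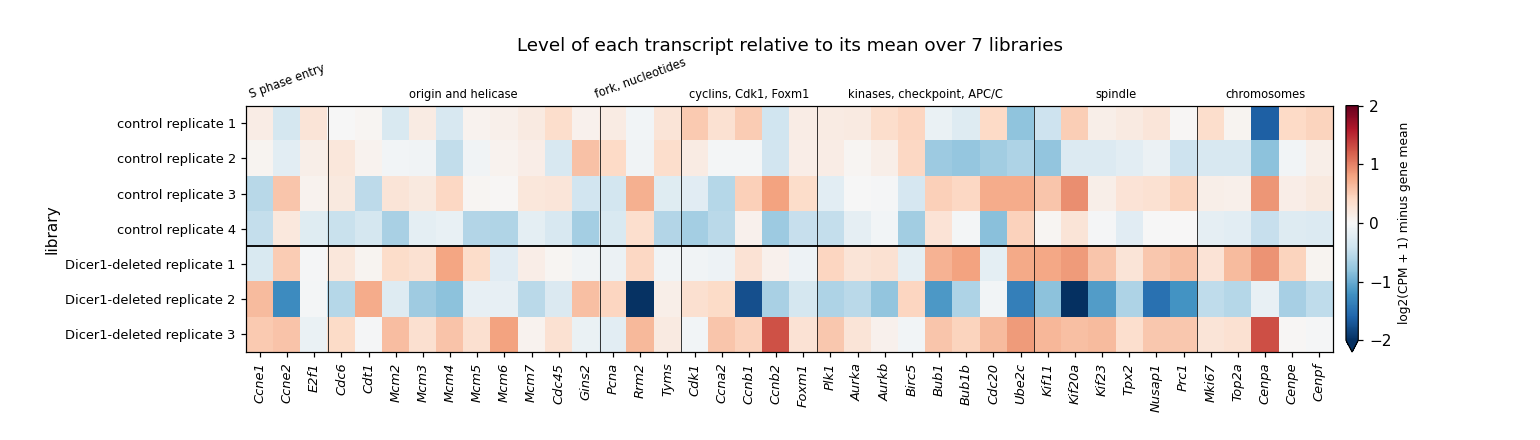
Each cell cycle gene (columns, by role) in each library (rows), as log2(CPM + 1) minus the mean of that gene over 7 libraries, with red above and blue below the mean and the colour scale ending at -2 and 2. The row of Dicer1-deleted replicate 2 is blue for most spindle, kinase and chromosome genes but red for Ccne1, Cdt1, Gins2, Pcna, Tyms, Cdk1, Ccna2 and Birc5.

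Without Dicer1-deleted replicate 2, the remaining 2 deleted libraries were above every control for 16 of 40 genes (40% of them) and below every control for 0, where 10.5% and 10.8% of all tested genes did so. These 16 were Cdc6, Mcm2, Mcm3, Mcm4 and Mcm5 among replication genes and Plk1, Aurka, Bub1, Bub1b, Ube2c, Kif11, Kif23, Nusap1, Prc1, Top2a and Cenpa among mitotic genes. The median log2 fold change of the 40 genes became 0.30, and 33 of 40 were positive. By role the medians were 0.47 for spindle genes, 0.45 for kinase and checkpoint genes, 0.45 for the genes of S phase entry, 0.29 for origin and helicase genes, 0.25 for chromosome genes, 0.095 for the mitotic cyclins with Cdk1 and Foxm1, and 0.067 for the clamp and nucleotide genes. An unadjusted p under 0.05 was then reached by 6 of 40 genes, against 9.42% of all genes tested in that fit in either direction, and all 6 had positive log2 fold changes: Mcm4 (0.79), Kif23 (0.61), Top2a (0.56), Bub1b (0.75), Mcm2 (0.66) and Cenpa (1.37). None of the 40 passed in edgeR after adjustment, with adjusted p-values of 0.433 to 0.524 for these 6. The library left out was singled out after its values were seen.

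The other genes of replication and mitosis were not called either. Of 36 further replication genes, 24 had positive log2 fold changes, with a median of 0.095, and 0 were called by edgeR or DESeq2 or reached an unadjusted p under 0.05. Pola2, a subunit of the polymerase alpha-primase complex, and Dnmt1, which copies DNA methylation, were the 2 of these 36 whose groups did not overlap. Over all tested genes, 9.31% showed no overlap. Pola2 was at 14.5, 13.8 and 12.9 against 8.13, 10.5, 10.6 and 9.94 CPM and Dnmt1 at 72.9, 59.5 and 57.1 against 53.2, 55.8, 50.2 and 52.3 CPM, with log2 fold changes of 0.48 ± 0.23 and 0.25 ± 0.22 and edgeR adjusted p-values of 0.692 and 0.966. Of 52 further mitotic genes, 31 were positive, with a median of 0.072, 0 calls, 0 at an unadjusted p under 0.05 and 0 without overlap. Without Dicer1-deleted replicate 2 the medians were 0.19 for the replication and 0.25 for the mitotic list, with 27 of 36 and 41 of 52 genes positive, 4 and 8 at an unadjusted p under 0.05, and 0 called in both. Of all genes tested in that fit, 9.42% had an unadjusted p under 0.05 in either direction.

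No regulator of G1 passed the adjusted edgeR test. Among 24 G1 cyclins, kinases, E2F factors and pocket proteins, 14 were positive, the median was 0.18, and 4 had an unadjusted p under 0.05, all with positive log2 fold changes, against 3.88% of tested genes. Ccnd2, which encodes cyclin D2, a partner of Cdk4 and Cdk6, was at 76.1, 74.03 and 56.6 CPM in Dicer1-deleted replicates 1, 2 and 3 and 20.1, 10.3, 50.8 and 15.8 CPM in control replicates 1 to 4. Every Dicer1-deleted library lay above every control, 1 of which, replicate 3, was well above the rest, and the log2 fold change was 1.51 ± 0.49 (edgeR adjusted p 0.375). Ccnd3 was at 10.1, 23.98 and 13.5 against 7.92, 9.83, 8.17 and 9.12 CPM, also without overlap, and Ccnd1 at 39.4, 25.4 and 50.5 against 23.1, 20.7, 29.3 and 13.6 CPM, with overlap. Their log2 fold changes were 0.86 ± 0.32 and 0.83 ± 0.33, with edgeR adjusted p-values of 0.482 and 0.536. E2f2 was at 17.6, 19.9 and 16.5 against 11.1, 12.2, 9.48 and 14.8 CPM, with a log2 fold change of 0.60 ± 0.25 and an adjusted p of 0.562. A match to the miR-16 seed was present in the 3' UTR of 10 of these 24 genes, with 5 of the 10 positive and a median log2 fold change of 0.20, against 9 of 14 and 0.18 for those without one. Those of the D-type cyclins, in the last exon, are shown since these cyclins are textbook targets of the family.
Ccnd1, miR-16-5p: gcatgccaccaTGCTGCTggcccgggggg
Ccnd2, miR-16-5p: gtttcacggtgTGCTGCTattttagaaac
Ccnd3, miR-16-5p: gttgctttgctTGCTGCTtagcttctgtg
These sites lie at chr7:144930384-144930412 (minus strand), chr6:127128531-127128559 (minus strand) and chr17:47599283-47599311 (plus strand). The 8 cell cycle genes with a miR-16 site had a median log2 fold change of 0.058, against 0.11 for the 32 without one. For miR-17 the medians were -0.13 with and 0.14 without a site, and for let-7 they were 0.030 and 0.11. Over all tested genes the medians with and without a site were 0.0094 and 0.013 for miR-16, 0.0089 and 0.013 for miR-17, and 0.049 and 0.0079 for let-7. The kinases that cyclin D binds were at 142, 146 and 148 against 185, 187, 155 and 138 CPM (Cdk4) and 152, 80.9 and 224 against 118, 121, 218 and 158 CPM (Cdk6), with log2 fold changes of -0.19 and -0.015. Cdk6 holds 3 matches to the miR-16 seed, 2 of them overlapping, and Cdk4 none. Without Dicer1-deleted replicate 2 the log2 fold changes were 1.45 for Ccnd2, 1.05 for Ccnd1, 0.43 for Ccnd3, 0.52 for E2f2 and 0.29 for Cdk6, with 17 of 24 genes positive and a median of 0.27. In that fit 8 of the 24 had an unadjusted p under 0.05, against 9.42% of all tested genes in either direction, and 0 were called. Ccnd1 and Ccnd2 were among these 8, while Ccnd3, E2f2 and Cdk6 were not.

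Brakes on the cycle were measured through 18 tested genes of CDK inhibitors and the p53 response, of which 13 were positive, with a median of 0.20 and 0 edgeR or DESeq2 calls. Cdkn1a (p21) was at 264, 364 and 197 against 250.2, 255, 241 and 207 CPM and Cdkn1b (p27) at 35.6, 23.3 and 26.7 against 23.7, 19.3, 28.2 and 28.4 CPM, with log2 fold changes of 0.21 and 0.20. Plk3 and Sesn2, both stress-responsive, had an unadjusted p under 0.05 with positive log2 fold changes (2 of 18, against 3.88% of tested genes). Plk3 was at 44.3, 82.6 and 35.3 against 34.8, 28.1, 30.8 and 23.1 CPM and Sesn2 at 4.03, 11.6 and 5.29 against 1.26, 1.97, 4.48 and 2.097 CPM, and both were highest in Dicer1-deleted replicate 2. Their edgeR adjusted p-values were 0.466 and 0.416. Without Dicer1-deleted replicate 2 their log2 fold changes were 0.44 and 0.93, neither at an unadjusted p under 0.05, that of Cdkn1a was -0.056, and 11 of 19 tested genes of the list were positive.

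Growth signals and self-renewal regulators of macrophages were read in 17 tested genes, of which 11 were positive, with a median of 0.18. Csf1r, the receptor of CSF1, was at 789, 494 and 710.5 CPM in Dicer1-deleted replicates 1, 2 and 3 and 581, 553, 809 and 572 CPM in control replicates 1 to 4, with a log2 fold change of 0.079 ± 0.29. Myc, a driver of growth, was at 34.1, 13.3 and 36.7 against 15.3, 16.02, 49.8 and 34.1 CPM, and Maf, which restrains macrophage self-renewal, at 275, 257 and 312 against 201, 388, 230.1 and 170.4 CPM. All 3 overlapped between groups, with log2 fold changes of Myc and Maf of -0.039 and 0.18. Klf4, a transcription factor of monocyte differentiation, was at 75.9, 73.2 and 82.8 against 136, 139.7, 169 and 206 CPM, and Irf8, another such factor, at 55.5, 109 and 80.3 against 30.7, 42.3, 24.8 and 37.2 CPM. Both separated the groups, with log2 fold changes of -1.07 ± 0.26 and 1.27 ± 0.30. DESeq2 called both (adjusted p 0.00298 and 0.0108), where it called 1.57% of tested genes lower and 0.925% higher, while edgeR gave adjusted p-values of 0.214 and 0.207. Without Dicer1-deleted replicate 2 their log2 fold changes were -1.04 and 1.01, that of Myc was 0.30, and 10 of 17 genes were positive, with 0 called by edgeR.

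Some counts are shared with neighbouring genes, since the protocol keeps no strand. Exons of 11 of the 40 genes overlap exons of a gene on the opposite strand (Ccne2, Mcm7, Cdc45, Gins2, Ccna2, Plk1, Cdc20, Ube2c, Kif20a, Nusap1 and Prc1), and reads of the 2 genes of a pair cannot be told apart there. Mcm7 also overlaps the annotated microRNA genes Mir25 and Mir93, the latter with the miR-17 seed. Like Mcm7, Foxm1 and Top2a share exon stretches with genes on their own strand (Gm44596 and Tex52 for Foxm1, Gm23451 for Top2a). Reads placed on several genes made up more than 5% of the expected counts for 5 genes, Gins2 (18.4%), Kif20a (15.7%), Ccna2 (15%), Ccne2 (10.3%) and Foxm1 (9.82%), whose values are less certain.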

How the data were processed

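RNA was measured by RNA sequencing in 7 libraries, 3 Dicer1-deleted and 4 control, grouped by the genotype in the labels. Per the labels' protocols, a SMARTer kit for very small inputs amplified the cDNA, Nextera XT turned it into libraries, and both ends of each fragment were sequenced. Per the submitters' processing notes, Bowtie2 was used. The sources used here give neither its version nor the build, annotation or counter.

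The authors deposited 1 table per library with counts of uniquely placed reads per gene, which were used for every test. Per the file headers, the tables also hold expected counts, which add shares of multiply placed reads, and RPKM, whose lengths and totals are not stated. The RPKM of the authors serve only to compare levels between genes. All counts were even, that is, the 2 mates of each pair were both counted. The 31124 values of genes unlisted in a library were set to 0, and 21813 of 24084 Ensembl IDs matched a GENCODE symbol. Depth was 42.97 to 51.15 M unique reads per library.

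Counts were filtered (filterByExpr, 16226 genes), TMM-scaled and tested with the quasi-likelihood F test of edgeR 4.0.16 in R 4.3.3, with Benjamini-Hochberg adjustment at 0.05 and no covariate. Intervals (95%) come from the standard error of that fit. Scores are means of log2(CPM + 1). Transcript lengths were implied by the deposited counts and RPKM. The workflow was tested on simulated data. DESeq2 1.42.0 and limma-voom (limma 3.58.1) were alternatives, as were other scalings and filters, multiply placed reads, the L code, leaving out each library and, added after seeing the data, a correction of each library's trend with transcript length. Sequences were searched with Python 3.11.15.

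The 40 genes, their roles and the other gene lists were chosen with earlier results of these data known. The rule for naming genes takes 24 usual markers of their role and the 3 highest and 3 lowest log2 fold changes with values in every library, and the other genes by count and range. In the other lists it takes DESeq2 calls, up to 4 genes at an unadjusted p under 0.05 and 12 textbook regulators, of which 1 is not reported here. Pola2 and Dnmt1 are named outside it, after their values were seen. Cdkn2d and Mycn, and the markers Camp, Ms4a2, Cldn4 and Cldn5, were not analysed here.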

Additional observations from a re-analysis of the deposited data

Results flagged for a closer look

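Among the 4 control libraries, 1 library stood far from the other 3 in 3 of the 43 results examined (40 genes and 3 mean levels), by the gap to its nearest neighbour relative to the range. Chance gives such a gap in about 1 in 20 groups. Ccnb2 (cyclin B2) was at 47.9 CPM in control replicate 3 and at 15.95 to 20.6 CPM in the other controls. Mcm6 (a helicase subunit) was at 27.7 CPM in control replicate 4 and at 43.3 to 46.0 CPM in the others. The mean log2(CPM + 1) of the 16 replication genes was 4.65 in control replicate 4 and 5.02 to 5.03 in the others. Control replicate 4 was also the lowest of the 7 libraries for 11 of the 40 genes and for 12% of all tested genes, and control replicate 3 had the highest monocyte marker sum (2355 CPM). Their part in these values was not tested.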

How the results depend on the processing

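No paired analysis was possible because replicate numbers were given in accession order and the titles pair no libraries across the groups. Under every alternative run, 0 of the 40 cell cycle genes were called by edgeR, DESeq2 or limma-voom; the alternatives were RLE size factors, library totals, DESeq2, limma-voom, testing without a low-count filter, a minimum of 10 CPM in 3 libraries (36 of the 40 tested), the L code as covariate, read pairs, multiply placed reads, each library left out, and the length correction. Their median log2 fold change was 0.050 to 0.25 over the settings that kept all libraries or corrected for length, and -0.079 to 0.30 when 1 library was left out. The mean log2 CPM difference was 0.029 to 0.28 over 8 other settings for all 40 genes, -0.026 to 0.22 for replication and 0.012 to 0.32 for mitotic genes. With 1 library left out it was -0.094 to 0.37, -0.013 to 0.27 and -0.15 to 0.44.

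The number of all genes called moved from 4 to 405 in DESeq2, 2 in limma-voom, 42 without a filter, 1 with the 10 CPM filter, 0 with the L code as covariate, 12 with the length correction, 10 with that correction and without Dicer1-deleted replicate 2, and between 0 and 3 when 1 library was left out. Cell cycle genes at an unadjusted p under 0.05 numbered 0 in the fit reported, 0 to 6 when 1 library was left out (6 without Dicer1-deleted replicate 2, where 9.42% of all tested genes did so) and 7 with that library out and the length correction (10.8% of all tested genes). Cell cycle genes without overlap numbered 0 to 16 when 1 library was left out, with 16 without Dicer1-deleted replicate 2 (40% of the genes, against 21.3% of all tested genes in either direction).

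The log2 fold changes of single genes changed sign, among them those of Ccnb2 (0.52), Ccnb1 (-0.34), Mcm6 (0.30) and Ube2c (0.29) when 1 library was left out. With the L code as covariate they were Gins2 -0.028, Pcna -0.10, Tyms -0.054, Cdk1 -0.029, Birc5 -0.13, Kif20a 0.15 and Cenpe 0.067. With library totals they were Mcm3 -0.011, Cdc45 -0.019, Pcna -0.0078, Cdk1 -0.0015, Aurka -0.0019 and Birc5 -0.0059, and in limma-voom Ccne2 -0.11, Mcm3 -0.060, Aurka -0.019, Tpx2 -0.0099, Nusap1 -0.26 and Prc1 -0.047. The 10 CPM filter gave Mcm3 -0.0011 and Nusap1 -0.012, the length correction Nusap1 -0.049 and Mki67 -0.023, and that correction without Dicer1-deleted replicate 2 Gins2 -0.22, Pcna -0.17, Rrm2 0.25, Tyms -0.12, Cdk1 -0.16, Aurkb 0.059, Birc5 -0.24 and Kif20a 0.26. When each library was left out in turn, the lowest and highest log2 fold changes of genes that changed sign were Aurka -0.11 to 0.24, Aurkb -0.40 to 0.092, Birc5 -0.16 to 0.25, Bub1 -0.10 to 0.60, Ccnb1 -0.70 to 0.095, Ccnb2 -0.20 to 0.99, Ccne2 -0.22 to 0.46, Cdc20 -0.26 to 0.62, Cdc45 -0.14 to 0.18, then Cdc6 -0.14 to 0.30, Cdk1 -0.12 to 0.31, Cenpe -0.37 to 0.17, Foxm1 -0.34 to 0.038, Gins2 -0.098 to 0.50, Kif20a -0.71 to 0.32, Kif23 -0.045 to 0.61, Mcm3 -0.15 to 0.28, Mcm6 -0.13 to 0.48, and finally Mki67 -0.091 to 0.25, Nusap1 -0.27 to 0.42, Pcna -0.18 to 0.24, Prc1 -0.14 to 0.52, Rrm2 -0.61 to 0.27, Tpx2 -0.13 to 0.28, Tyms -0.064 to 0.26 and Ube2c -0.043 to 0.74. Without Dicer1-deleted replicate 2 alone, 10 genes changed sign. The length correction, and its use without that library, were chosen after seeing the data.

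Precision was set by the spread between libraries (a biological coefficient of variation of 45.1%) more than by depth. Reads without molecular identifiers are not independent molecules, and 3 against 4 libraries keep the 95% interval within 2-fold for 19 of the 40 genes.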
